A study of Homo sapiens with 16 samples.

Results

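The earliest time point of the PARP inhibition (PARPi) experiment in MUTZ-3 cells was 12 h, and it holds 3 of the 16 RNA-Seq libraries of the series. MUTZ-3 is an established AML cell line with inv(3), the rearrangement that places *EVI1* (listed in the files as MECOM) under a relocated enhancer. One library came from cells given DMSO as vehicle for 12 h, one from cells given 10 µM olaparib and one from cells given 1 µM talazoparib, and the members were taken by the time stated in their labels. All cells were grown in medium with GM-CSF and medium conditioned by a bladder cancer line. The libraries used for comparison came from untreated cells at 0 h, from cells under DMSO, olaparib or talazoparib at the same doses for 24 and 48 h, and from cells 3 and 6 days after transduction with a non-targeting shRNA (NTC) or with an shRNA against *EVI1* (shEVI1-2531 or shEVI1-2532). No condition has a second library, all come from this 1 line, and the labels do not name separate cultures. Hence the 12 h ratios have no replicate check, and no p-value is given for them. The 95% counting intervals of single genes cover counting error only. The 95% intervals of the median of a gene list cover only the spread between its genes, which share libraries and are not replicates.

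PARP1 binds DNA breaks and marks proteins around them with poly(ADP-ribose), and olaparib and talazoparib block this activity and hold the enzyme on chromatin. Damaged DNA activates the kinases ATM and ATR, which stabilise the transcription factor p53. p53 then raises transcription of genes for cell cycle arrest (*CDKN1A*), apoptosis (*BBC3*), repair (*XPC*) and its own removal (*MDM2*, a ubiquitin ligase for p53). At 12 h cells have spent less than a day with the inhibitor, so the comparison shows which transcripts stood apart from DMSO before the later time points of the same course.

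The p53 target genes were the list in which most genes stood above DMSO at 12 h, so DNA matching the p53 motif, a pair of adjacent decamers of 20 bases in all, is shown first. RefSeq promoters of GRCh38.p14, each with 250 bases before and 50 after a start site, were searched for 2 decamers with no gap, at most 2 mismatches and the conserved C and G of each decamer kept. The motif reads alike on both strands, so a search of 1 strand covers both. Such a pair stood in 100 of 35116 promoters, or 0.285%, and in 40 of the 10451 genes measured here that had a promoter in the table (0.383%). Of the 264 genes that were higher with both inhibitors, 142 had a promoter in this table and 5 of them (3.52%) held a pair, namely *MDM2*, *GRHL3*, *ACTA2*, *ANKRD65* and *AATBC*. Of the 40 genes in the p53 list, 31 had a promoter and *MDM2*, *FAS*, *AEN* and *DDB2* (12.9%) held a pair. *MDM2* enters both of these shares, and the pairs of *ACTA2* and *FAS* are the same bases. *GRHL3* and *ANKRD65* were below the minimum count with DMSO and were kept only through the inhibitor libraries, where they were higher. The selection thus enters the share of 3.52%, and nothing is read from its difference from 0.383%. A match is a description of letters in a window and no evidence of binding, and genes without one may hold it elsewhere.

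For 3 pairs outside annotated exons the 100 bases around them are printed, with the pair in capitals. The *MDM2* pair lies in an intron of the gene (chr12:68808883-68808982, plus strand), the *GRHL3* pair in an intron as well (chr1:24322883-24322982, plus strand), and the *AATBC* pair outside annotated genes (chr21:43812692-43812791, minus strand).
MDM2: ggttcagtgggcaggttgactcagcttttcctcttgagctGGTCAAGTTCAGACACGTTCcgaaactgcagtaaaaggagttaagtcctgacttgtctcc
GRHL3: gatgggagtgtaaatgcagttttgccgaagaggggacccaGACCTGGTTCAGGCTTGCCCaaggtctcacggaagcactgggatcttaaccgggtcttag
AATBC: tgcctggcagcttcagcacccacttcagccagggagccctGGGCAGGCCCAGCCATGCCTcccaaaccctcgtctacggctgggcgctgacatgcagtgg

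The other pairs overlap annotated exons, and only the pair itself is shown. *FAS*, a death receptor, and *ACTA2*, smooth muscle actin, start on opposite strands and share the same 20 bases (chr10:88991309-88991328), read from opposite sides. The *AEN* pair lies at chr15:88621306-88621325 on the plus strand, the *DDB2* pair at chr11:47214969-47214988 on the plus strand, and the *ANKRD65* pair at chr1:1421482-1421501 on the minus strand.
FAS: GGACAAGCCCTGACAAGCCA
ACTA2: TGGCTTGTCAGGGCTTGTCC
AEN: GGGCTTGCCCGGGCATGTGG
DDB2: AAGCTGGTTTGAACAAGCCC
ANKRD65: AAGCATGTTCCTGCTTGTCC

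*MDM2* had 11690 counts with DMSO at 12 h, 27925 with olaparib and 34188 with talazoparib. *ACTA2* had 79, 187 and 276 counts in the same order, and *FAS* had 1055, 1854 and 1965. *GRHL3*, an epithelial transcription factor, had 3, 33 and 74 counts, with ratios of 3.502 (95% counting interval 1.83 to 5.85) and 4.48 (2.88 to 6.80) on the log2 scale. *ANKRD65* had 7, 28 and 70 counts and *AATBC* 13, 32 and 45. *FAS* was higher with both inhibitors than with DMSO, by less than 1 log2. The other genes of this paragraph are shown because they passed the rule, so their direction was fixed by it. *AEN* and *DDB2*, which also held a pair, did not pass the limit with both inhibitors.

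The 3 libraries held between 63056440 and 71547678 counts. For ratios a count of 0 was set to 3, or 0.0419 to 0.0476 CPM (counts scaled to a fixed library total). Lower counts above 0 were used as they are. Mitochondrial genes took 1.77% to 2.17% of the counts. Genes with 10 or more counts in at least 2 of the 3 libraries were kept, which left 16378 of 60623 genes. Markers of the line were present in all 3 libraries, among them *MPO* with 1304 to 1511 CPM and *CD34* with 318 to 453 CPM. Several markers of other cells were at or near 0. *MS4A1*, *KRT5* and *CDH1* had 0 counts in each library, *HBB* and *EPCAM* had at most 3, and *KRT19* at most 8. Higher levels were found for *CD3E* and *CD3D* of T cells, at 2.05 to 3.47 CPM, and for *KRT17*, a keratin, at 115 CPM with DMSO, 173 with olaparib and 169 with talazoparib. In such bulk samples, fewer cells of a type and less RNA per cell cannot be told apart.

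The question at 12 h was which genes stood at least 1 log2 from DMSO in the same direction with both inhibitors. Olaparib placed 390 genes at least 1 log2 above DMSO (2.38% of those measured) and 228 below (1.39%), and talazoparib placed 421 above (2.57%) and 171 below (1.04%). With both, 264 genes were higher (1.61%) and 25 lower (0.153%). Both ratios share the same DMSO library, so a low or high value in it moves both in the same way. The median ratio over all genes measured was −0.02 with olaparib and −0.00177 with talazoparib.

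Many of the 264 genes had few reads. In the DMSO library 141 of them had under 10 counts, 36 had 1 to 3 and 3 (*AREG*, *LCN15* and *CCDC120*) had 0, so those genes passed the filter on low values only through the inhibitor libraries and had to lie above DMSO. Both counting intervals lay above 0 for 181 of the 264 genes and above 1 for 71. With at least 1 CPM in 2 of the 3 libraries, 12278 genes remained, of which 79 were higher and 2 lower with both inhibitors. This limit can also be met through the inhibitor libraries alone, so the 79 genes, called more abundant below, need not be so with DMSO. With a mean of at least 1 CPM over the 3 libraries, a rule added after the values were seen, 71 were higher and 5 lower.

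**Figure D1:**
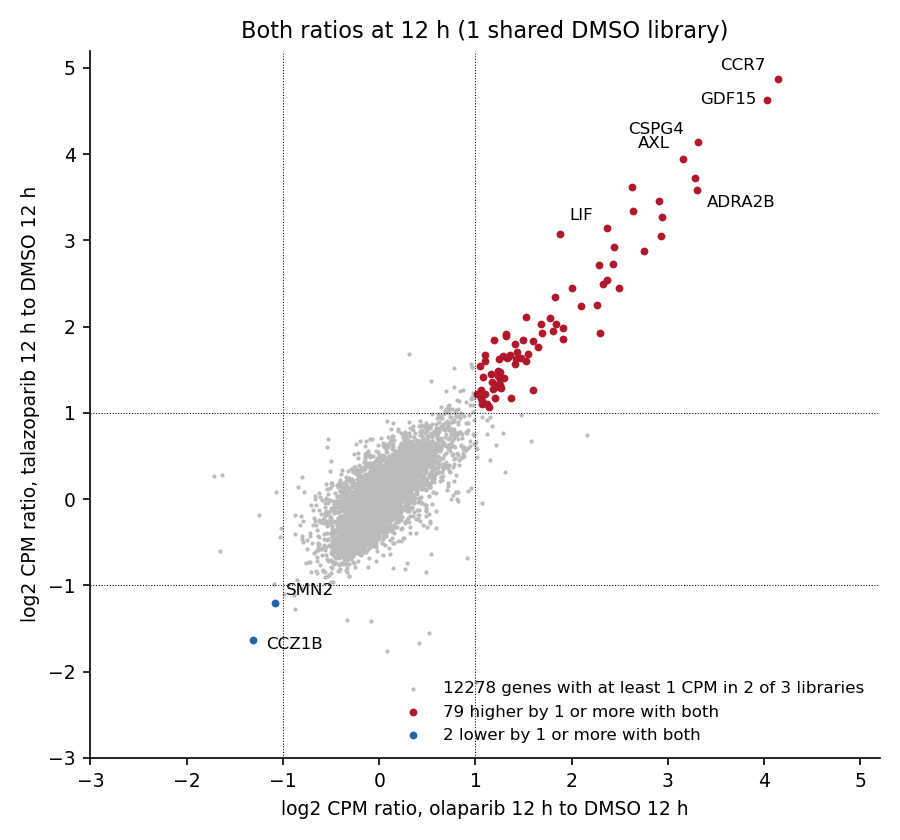
Log2 CPM ratio of olaparib (x axis) and talazoparib (y axis) to the same DMSO library at 12 h, for the 12278 genes with at least 1 CPM in 2 of the 3 libraries; dotted lines mark 1 log2. The 79 genes past the limit with both inhibitors (red) reach 4.14 and 4.88 for CCR7, and the 2 lower genes are CCZ1B and SMN2 (blue).

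DMSO at 24 h served as a second denominator. Of the 264 higher genes, 147 (55.7%) were also at least 1 log2 above DMSO at 24 h with both inhibitors, and 7 of the 25 lower genes were at least 1 log2 below it. Among the 79 more abundant genes 60 passed both denominators, and of the 2 lower genes neither did. Against DMSO at 24 h alone, 467 genes were higher (2.85%) and 93 lower (0.568%). The same rule was applied to libraries that saw no inhibitor, with untreated cells at 0 h and DMSO at 24 h each set against DMSO at 12 h. It gave 146 higher (0.885% of 16496 genes) and 41 lower genes (0.249%), and 5 and 3 among those with at least 1 CPM in 2 of these 3 libraries. Thus 27 of the 264 genes also passed the limit upwards where no inhibitor was given. With both inhibitors, 165 of the 264 genes lay above all 4 libraries without inhibitor (untreated, and DMSO at 12, 24 and 48 h), as did 13.5% of all genes measured. Of the 79 more abundant genes 70 did so, and the others were *CCL4*, *CCL3*, *CSF1*, *EGR3*, *ATF3*, *BTG2*, *RGL1*, *RASA4B* and *RGPD5*, which were named after their values were seen. Below all 4 libraries lay 14 of the 25 lower genes, as did 8.02% of all genes measured. The rule itself fixes the comparison with DMSO at 12 h and the same inhibitor values enter all 4, so nothing is read from the difference between these shares.

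Of the 264 genes 165 were protein-coding (62.5%, against 76.2% of all genes measured) and 59 were long non-coding (22.3%, against 12.3%). The remaining 40 were pseudogenes, other classes or not matched in GENCODE v29. Of the 25 lower genes 9 were long non-coding (36%) and 6 were pseudogenes (24%). No share was taken over genes of like abundance.

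The 12 genes named by size were those with at least 1 CPM in 2 of the 3 libraries, past the limit against both DMSO libraries, and with the largest values of the smaller of the 2 ratios. *CCR7*, *GDF15*, *ADRA2B*, *UNC13A*, *AXL*, *PXT1*, *SDC1*, AC022075.1 and *KIAA1671* had under 1 CPM with DMSO at 12 h. They met the limit of 1 CPM only through the inhibitor libraries, so their direction was fixed. *CCR7* (chr17:40553769-40565472 in GRCh38, minus strand), a chemokine receptor that guides cells to lymph nodes, had 26 counts with DMSO, 446 with olaparib and 842 with talazoparib (0.40, 7.07 and 11.8 CPM). Its log2 ratios were 4.14 (95% counting interval 3.57 to 4.77) and 4.88 (4.32 to 5.50). In the other libraries without inhibitor it had 30 (untreated), 19 (DMSO 24 h) and 11 counts (DMSO 48 h), all far below both inhibitor libraries. *GDF15* (chr19:18374731-18389176, plus strand), a secreted cytokine of the TGF-beta family and a p53 target, had 44, 698 and 1201 counts, with log2 ratios of 4.03 (3.59 to 4.50) and 4.63. Untreated cells had 48 counts of it, and DMSO had 78 at 24 h and 23 at 48 h. Both genes were at or below 1.07 CPM in the untreated library and in the 3 DMSO libraries.

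*CSPG4*, a membrane proteoglycan, had 68 counts with DMSO, 658 with olaparib and 1321 with talazoparib (log2 ratios 3.32, interval 2.96 to 3.70, and 4.14, interval 3.79 to 4.51). *AXL*, a receptor tyrosine kinase, had 32, 278 and 544 counts, with ratios of 3.16 and 3.95. For *UNC13A*, which primes vesicles for release, the counts were 50, 471 and 730 and the ratios 3.28 and 3.73. The adhesion molecule *NECTIN4* had 118, 711 and 1321 counts, with ratios of 2.63 and 3.34. Each of these genes was higher with both inhibitors than in any of the 4 libraries without inhibitor.

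The mucin *MUC5AC* went from 72 counts with DMSO to 535 and 766, the proteoglycan *SDC1* from 22 to 160 and 267, and the adrenergic receptor *ADRA2B* from 9 to 86 and 119. *PXT1* (15, 111 and 137 counts), *KIAA1671* (11, 66 and 149) and the non-coding AC022075.1 (24, 157 and 194) complete the 12. The smaller ratios of these 6 genes ran from 2.63 to 3.30. *SDC1*, *MUC5AC* and *NECTIN4* are known from epithelia, and *KRT17* was higher with both inhibitors, while the epithelial markers *KRT5* and *CDH1* were at 0 and *EPCAM* at 0 or 1 count.

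**Figure D2:**
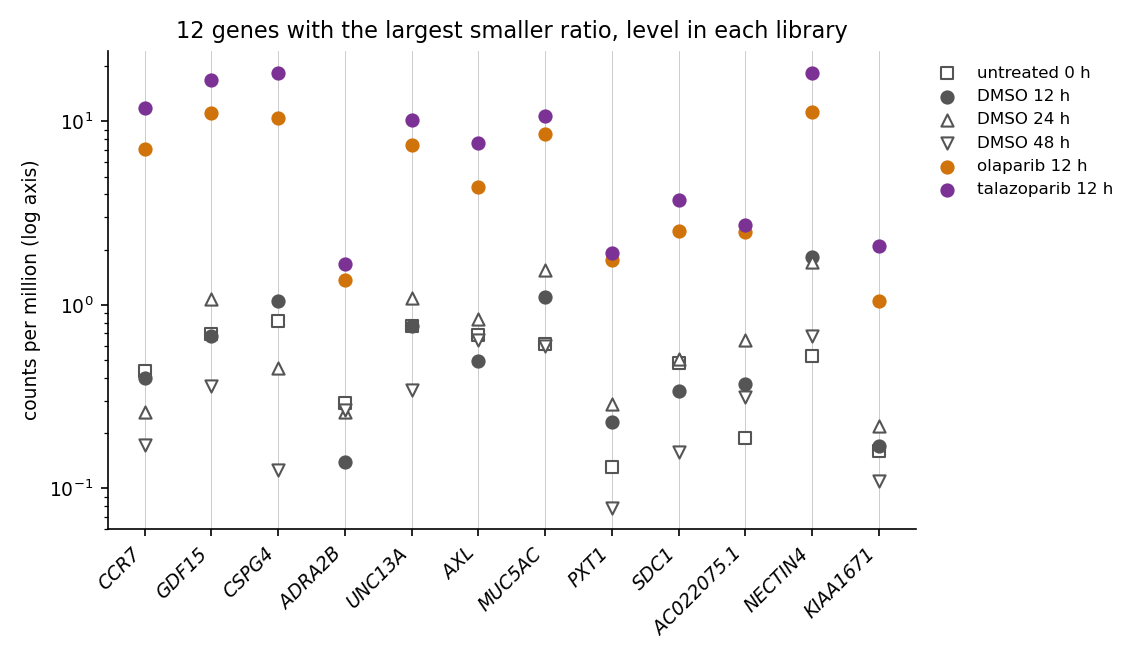
CPM on a log axis for the 12 genes with the largest smaller ratio, 1 point per library: untreated 0 h, DMSO 12, 24 and 48 h (grey symbols) and olaparib (orange) and talazoparib (purple) at 12 h. For all 12 genes both inhibitor libraries lie above the 4 libraries without inhibitor. The choice of the genes fixed this for DMSO at 12 and 24 h, but not for untreated cells and DMSO at 48 h.

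By the same rule no lower gene was named. The 2 lower genes with at least 1 CPM were *CCZ1B* (1289 counts with DMSO, 506 and 456 with olaparib and talazoparib) and *SMN2* (413, 190 and 197). Each has a near-identical copy (*CCZ1* and *SMN1*), so how reads were split between copies is uncertain, and DMSO at 24 h had 722 and 316 counts of them. Just inside the limit among higher genes were *BTG2* (ratios 1.02 and 1.22), *BEND3P2* (1.04 and 1.54) and *ASTN2* (1.06 and 1.17). Just outside it were MIR34AHG (0.979 with olaparib), *ABHD4* (0.98 and 1.23) and *GRIN2C* (0.97 and 1.19). Among lower genes, SMG1P3 (−1.09 and −0.99), *PIF1* (−0.98 and −1.10) and MIR17HG (−0.89 and −1.12) missed it narrowly.

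The 7 lower genes that passed both denominators all had at most 132 counts with DMSO at 12 h. *IGLL1*, the surrogate immunoglobulin light chain of early B cells, had 132 counts with DMSO, 58 with olaparib and 60 with talazoparib, and DMSO at 24 h had 304. The cytokine *IL17F* had 43, 18 and 21 counts, and *PIWIL3*, of the piRNA pathway, 45, 14 and 16. *STAG3L1*, VAC14-AS1, AL596094.1 and AC004540.2 were the others, which were named after their values were seen.

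Of the 40 genes on the p53 target list, 39 were measured. All 39 stood above DMSO with both inhibitors, as did 5938 of all 16378 genes measured. The median log2 ratio was 0.71 (95% binomial interval 0.50 to 0.93) with olaparib and 0.81 (0.57 to 1.00) with talazoparib. These intervals cover the spread between the genes of the list and give no uncertainty of the inhibitor effect. The limit was passed with both inhibitors by 11 of the 39 (28.2%, against 1.61% of all genes measured), and none was lower. Against DMSO at 24 h the medians were 0.70 and 0.82, and 9 of the 11 genes passed again. With that denominator *FDXR* stood at 0.78 and 0.80 and *TP53INP1* at 0.735 and 0.86, while *CCNG1* turned to −0.03 and −0.24. Between the DMSO libraries at 24 and 12 h the median of the list was −0.00294.

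Among the p53 targets that stop the cell cycle, *CDKN1A*, which inhibits cyclin-dependent kinases, had 14885 counts with DMSO, 36530 with olaparib and 51298 with talazoparib. Its log2 ratios were 1.34 (1.31 to 1.36) and 1.64 (1.62 to 1.67), and untreated cells and DMSO at 24 and 48 h had 15009, 14695 and 6859 counts. *CDKN1A* was the only one of the 7 measured CDK inhibitors past the limit. *BTG2*, an antiproliferative gene, had 2852, 5599 and 7329 counts, but untreated cells had 7229. *GADD45A*, a stress sensor, had 1012, 1860 and 1947 counts with ratios of 0.92 and 0.80.

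In the negative feedback on p53, *MDM2* had ratios of 1.30 (1.27 to 1.33) and 1.41 (1.38 to 1.44). *PPM1D*, a phosphatase that switches off p53 signalling, had 2193, 3836 and 4834 counts, with ratios of 0.85 and 1.00. The AKT inhibitor *PHLDA3* had 1473, 3790 and 4802 counts (1.41 and 1.56), and *INKA2*, an inhibitor of the kinase PAK4, had 1191, 3127 and 4294 (1.435 and 1.71). Untreated cells had 2725 counts of *INKA2*, below both inhibitor libraries.

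Among apoptosis genes, *BBC3*, which encodes the BH3-only protein PUMA, had 1469 counts with DMSO, 3387 with olaparib and 3973 with talazoparib (1.25 and 1.30). *BIK*, another BH3-only gene, had 32, 160 and 205 counts (2.36 and 2.54). These were the 2 of 15 measured BCL2 family regulators past the limit. *BAX*, which permeabilises mitochondria, stood at 0.42 and 0.52, *FAS* at 0.86 and 0.76, and *PMAIP1*, which encodes NOXA, at 0.21 and 0.30. The DNA repair genes *XPC* (2420, 3876 and 5317 counts) and *DDB2* (6341, 10688 and 13667), both of damage recognition in nucleotide excision repair, had ratios of 0.72 and 0.995, and of 0.80 and 0.97. Of the redox genes on the list, *TP53I3* had 1268, 2904 and 3756 counts (1.24 and 1.43) and *FDXR* 5621, 13120 and 15097 (1.265 and 1.285).

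**Figure D3:**
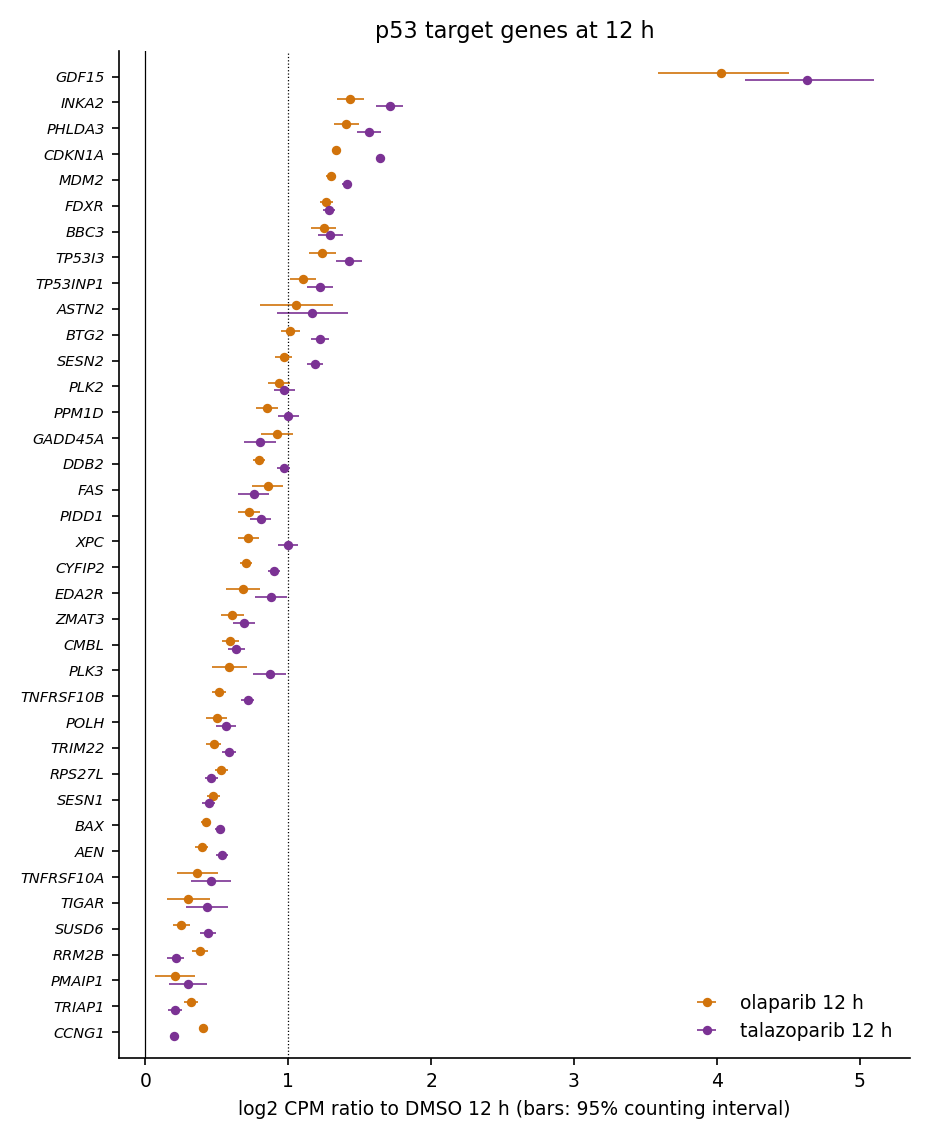
Log2 CPM ratio to DMSO at 12 h for the measured genes of the p53 target list that are reported here, with olaparib (orange) and talazoparib (purple); bars are 95% counting intervals and the dotted line marks 1 log2. Every gene shown lies above 0 with both inhibitors and 11 lie above 1 with both.

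The genes of the DNA damage checkpoint and of homologous recombination stayed near DMSO. None of the 34 was past the limit, and their medians were −0.09 and −0.08. *BRCA1* had 5671 counts with DMSO, 5060 with olaparib and 6121 with talazoparib, and *TOPBP1* had 8191, 7707 and 8216. The 18 genes of the PARP family and PARG had medians of 0.01 and 0.04, none past the limit. *PARP1*, the target of both inhibitors, had 27961, 25077 and 30966 counts, with ratios of −0.12 (−0.14 to −0.09) and 0.01 (−0.02 to 0.03). *PARP14*, which acts in cytokine signalling, had the ratios 0.17 and 0.38.

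Mitotic genes stood below DMSO. None of the 46 was past the limit, yet 45 had negative ratios with both inhibitors, as did 6584 of all 16378 genes measured. Their median was −0.30 (−0.36 to −0.26) with olaparib and −0.56 (−0.69 to −0.47) with talazoparib, and −0.41 and −0.68 against DMSO at 24 h. *CCNB1*, the cyclin of mitotic entry, had 18652 counts with DMSO, 12282 with olaparib and 10953 with talazoparib (−0.56 and −0.91). *CDC20*, which activates the anaphase-promoting complex, had 16305, 10756 and 9997 (−0.56 and −0.85), and *PSRC1*, a spindle protein, 2159, 1193 and 1165 (−0.81 and −1.03). *MKI67*, the proliferation marker, had only −0.15 and −0.09. Untreated cells had 12912 counts of *CCNB1* and 1346 of *PSRC1*. The median of the list in untreated cells against DMSO at 12 h was −0.42, between the values of the inhibitors. The 42 DNA replication genes had medians of −0.10 and −0.04, with none past the limit.

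Small nucleolar RNA host genes, whose introns carry small nucleolar RNAs, also stood lower. None of the 19 was past the limit. With both inhibitors 16 were negative, as were 6584 of all 16378 genes measured, and the medians were −0.16 and −0.30. *SNHG1* had 5397 counts with DMSO, 3205 with olaparib and 3307 with talazoparib (−0.71 and −0.85), and *SNHG3* had 3433, 2151 and 2508 (−0.63 and −0.59). *GAS5*, known to accumulate in growth-arrested cells, stood at −0.06 and −0.09.

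Among immediate early genes, which respond to stimuli within an hour, 3 of 20 passed the limit. *EGR2* had 14, 49 and 72 counts (1.85 and 2.22), *EGR3* had 36, 79 and 102 (1.18 and 1.36), and *ATF3*, which is also on the list of ATF4 stress genes, had 310, 647 and 1040 (1.10 and 1.61). Of the 4 libraries without inhibitor, untreated cells had the highest level of each of these genes, with 168 counts of *EGR2*, 2928 of *EGR3* and 1806 of *ATF3*. The median of the list was 0.51 with both inhibitors and 1.71 in untreated cells against DMSO at 12 h. Chemokines and inflammatory cytokines had medians of 0.45 and 0.46, and 3 of the 21 measured passed, namely *CCL4*, *CCL3* and *LIF*. *LIF*, a cytokine of the IL-6 family, had 14, 70 and 136 counts, and untreated cells had 10. *CCL4* had 20, 95 and 84 counts, and untreated cells 1423. *CCL3* and *CCL4* have near-identical copies, so their counts are uncertain. The list stood lower in DMSO at 24 h than at 12 h (median −0.50), and 10 of its genes were past the limit with both inhibitors against DMSO at 24 h. *IL1B* had 2296, 4416 and 4248 counts at 12 h (0.99 and 0.75) and *CXCL8* had 8019, 12801 and 9823 (0.72 and 0.15).

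ATF4 stress genes had medians of −0.03 and −0.00677. Of 21 measured, *ATF3*, *NUPR1* (26, 54 and 79 counts) and *CHAC1* (1, 11 and 10 counts, with an interval of 0.72 to 8.93 on the olaparib ratio) passed, and against DMSO at 24 h, with 9 counts of *CHAC1*, only *ATF3* of these did so. *ATF4* itself stood at −0.24 and −0.21. Of the 38 interferon-stimulated genes, the 22 sterol synthesis genes and the 6 AHR target genes measured, none passed with both inhibitors. Medians were 0.07 and 0.27 for interferon-stimulated genes and −0.09 and −0.04 for sterol synthesis. *CYP1A1*, the monooxygenase that AHR induces, had 53 counts with DMSO, 230 with olaparib and 98 with talazoparib (2.16, interval 1.72 to 2.62, and 0.75, interval 0.25 to 1.26). The 2 doses differ, so these values are side by side and were not compared.

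**Figure D4:**
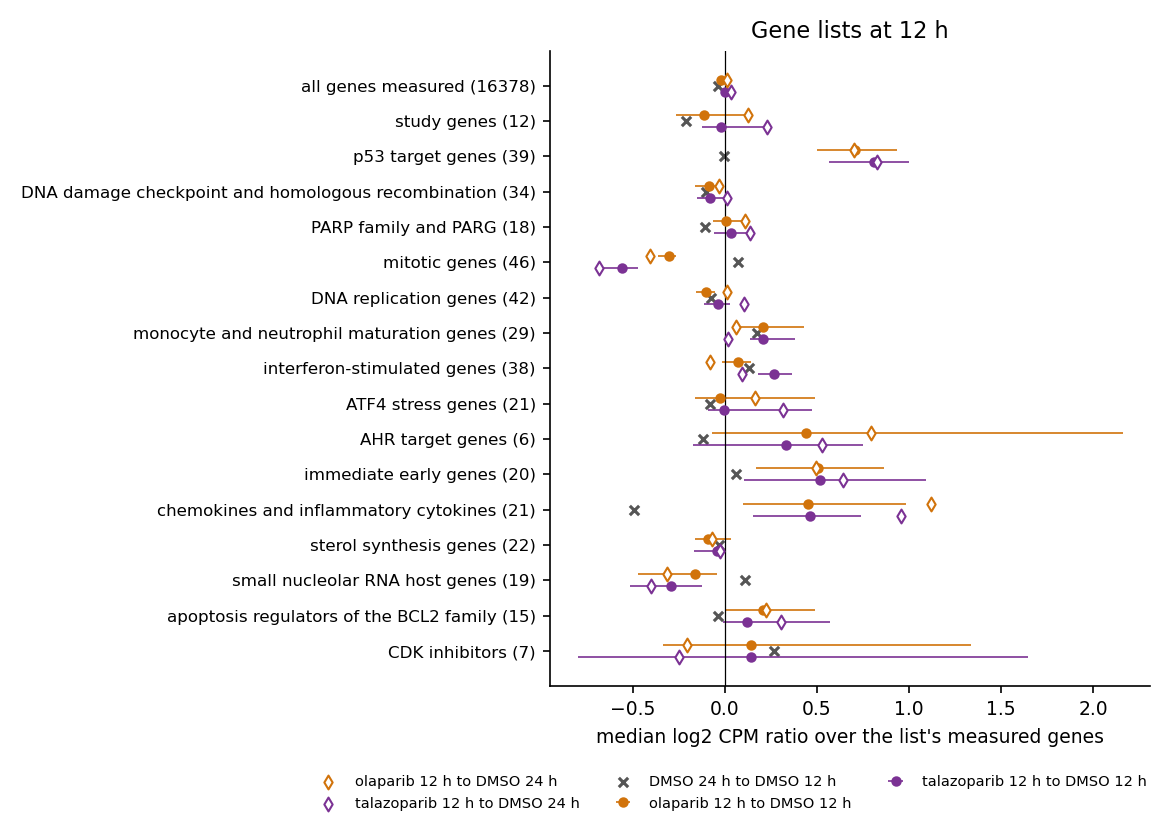
Median log2 CPM ratio over the measured genes of each list (number in brackets) for olaparib (orange) and talazoparib (purple) against DMSO 12 h (circles, bars are 95% binomial intervals of the median) and DMSO 24 h (open diamonds), with DMSO 24 h against DMSO 12 h as crosses. The p53 targets lie at 0.70 to 0.82 with either denominator, and the mitotic genes between −0.30 and −0.68.

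Maturation genes of monocytes and neutrophils had medians of 0.21 with both inhibitors, and 0 of 29 passed the limit. Against DMSO at 24 h the medians were 0.06 and 0.02, and DMSO at 24 h stood 0.17 above DMSO at 12 h, so this small shift was also seen over time without an inhibitor. *NCF1*, a subunit of the phagocyte oxidase with near-identical copies, had 9559, 16851 and 17182 counts (0.86 and 0.71). *S100A9*, a calcium-binding protein of phagocytes, had 28761, 37635 and 36575 (0.43 and 0.21), below the 43765 counts of DMSO at 24 h.

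None of the 12 genes that the study follows passed the limit at 12 h. *EVI1* had 3318 counts with DMSO, 2906 with olaparib and 3352 with talazoparib, with log2 ratios of −0.15 (−0.22 to −0.08) and −0.13 (−0.20 to −0.06). Untreated cells had 1953 counts of it and DMSO at 24 h had 3702. *CD34*, the progenitor marker, had 25364, 20068 and 32379 counts, so its ratios of −0.30 and 0.21 had opposite signs. *CD14*, the monocyte marker, had 552, 869 and 793 counts (0.70, interval 0.54 to 0.85, and 0.38, interval 0.22 to 0.54). The serine synthesis enzyme *PHGDH* stood at −0.20 and −0.05 and the transcription factor *ERG* at −0.29 and 0.02. *MYB* stood at −0.27 and −0.36 and *GATA2* at 0.24 and 0.27, *RUNX1* at −0.12 and −0.09, *IKZF1* at 0.05 and 0.06, *CEBPA* at 0.11 and −0.17, and *HOXB2* at −0.04 and −0.06.

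Several of the 79 more abundant genes encode surface receptors and their ligands. They were grouped by role after the values were seen. Of the tumour necrosis factor family, *CD70* had 476 counts with DMSO, 1448 with olaparib and 1781 with talazoparib (1.65 and 1.76), and *TNFSF9* had 1462, 3083 and 3463 (1.12 and 1.10). The decoy receptor *TNFRSF10C* had 24, 67 and 114 counts. DMSO at 24 h had 844 counts of *CD70* and 1874 of *TNFSF9*, and with that denominator their smaller ratios were 0.98 and 0.91. *KITLG*, the ligand of KIT, had 798, 1787 and 1985 counts (1.20 and 1.18), and *CSF1*, the macrophage growth factor, had 28, 68 and 116. Among receptors, *EPHA2* had 48, 172 and 445 counts (1.88 and 3.07), *IL21R* had 352, 965 and 1392 (1.497 and 1.84), and the semaphorin receptor *PLXNA2* had 1192, 2902 and 4086 (1.33 and 1.64). *SRC*, a tyrosine kinase downstream of many receptors, had 448, 1035 and 1368 counts (1.25 and 1.47). *PRF1*, the perforin of cytotoxic cells, had 498, 1550 and 2247 counts and *CD6*, a lymphocyte receptor, 229, 556 and 935. The T cell marker *CD3E* had 187, 178 and 248 counts beside these values, and its part in them was not tested.

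Among further enzymes and metabolic genes of the 79, the methyltransferase-like *METTL7A* had 3066 counts with DMSO, 7122 with olaparib and 8425 with talazoparib (1.26 and 1.32), and DMSO at 24 h had 5445. Ceramide is handled by *ACER2*, a ceramidase with 241, 524 and 725 counts, and by *SMPD3*, a sphingomyelinase with 60, 204 and 255. *DHRS3*, a retinal reductase, had 24, 67 and 80 counts, *LOXL4*, a lysyl oxidase, 15, 82 and 90, and the transglutaminase *TGM5* 198, 498 and 491. *CYP4F2* and *CYP4F3*, close paralogs that inactivate leukotrienes, had 31, 103 and 146 counts and 35, 121 and 158, with reads between them uncertain. The lipase gene *CEL*, the thioesterase *OLAH* and the globin *CYGB* had ratios of 1.19 to 2.26 with both inhibitors against DMSO at 12 h. Against DMSO at 24 h *OLAH* stood at only 0.49 and 0.56. DMSO had 23 counts of *OLAH* at 12 h and 69 at 24 h, and untreated cells had 58.

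Genes of the cytoskeleton and of cell junctions included *FLNC*, a filamin (114, 393 and 637 counts), *PPL*, periplakin (18, 95 and 150), and *EPS8L2*, an actin regulator (37, 175 and 268). *SYTL2*, which tethers secretory vesicles, had 181, 531 and 710 counts (1.595 and 1.83). Further receptors were *PTPRU*, a receptor phosphatase (28, 146 and 204), *PLXNB3* (19, 74 and 114), *PTGIR*, the prostacyclin receptor (37, 100 and 127), and *FCAMR*, an Fc receptor (61, 127 and 214). *VWF*, von Willebrand factor, had 43, 100 and 124 counts. *CLCA2*, *TANC1*, *ATP9A*, *RASGRF1*, *TEAD3* and *CRACR2B* had 22 to 75 counts with DMSO and 67 to 288 with the inhibitors. The rest were pseudogenes or non-coding and unnamed transcripts, namely TCAF1P1, SSR4P1, LINC00484, AP002813.1, AL158206.1, AC018755.4, AC007906.2, AC087752.3 and AL078621.3. TCAF1P1 had 144, 524 and 575 counts at 12 h, while at 24 h it had 131 with DMSO, 107 with olaparib and 91 with talazoparib.

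The inhibitor libraries at 24 and 48 h and their own DMSO libraries show which of these genes stayed apart from DMSO. In a fit of edgeR's quasi-likelihood test to these 6 libraries, with time as a block and both inhibitors as 1 group, 1809 of 17412 genes rose (10.4%) and 1043 fell (5.99%) at an adjusted p under 0.05. Of the 264 genes higher at 12 h, 242 were tested, 114 rose (47.1%) and 0 fell. Of the 79 more abundant genes 62 rose (78.5%), and of the 25 lower genes 4 fell (16.0%). The share of 10.4% also covers less abundant genes, and no share over genes as abundant as the 79 was taken. The DMSO library at 24 h enters both this fit and the second denominator above, so the 147 genes past both denominators, and the 12 named genes among them, are not independent of it. Without that overlap, in the fit to the 48 h libraries alone, which has 1 residual degree of freedom, 200 of the 264 were tested and 91 rose, beside 2091 of all 16367 genes tested (12.8%). The 2 inhibitors stood in for replicates in this fit, so its spread includes any difference between them, and all samples come from 1 line.

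As single ratios, 129 of the 264 genes were at least 1 log2 above DMSO with both inhibitors at 24 h (4.41% of all genes measured were) and 107 at 48 h (7.29%), while 0 and 15 were as far below. For the 79 more abundant genes the olaparib ratio to DMSO of the same time had a median of 1.48 at 12 h, of 1.44 at 24 h and of 1.69 at 48 h. With talazoparib it was 1.76, 1.49 and 1.497. The 79 genes were chosen by their 12 h ratios, so the 12 h medians lie above 1 by the rule. Nothing is read from the difference between the 12 h medians and the later ones. Of the 25 lower genes 4 were past the limit at 24 h (0.788% of all genes) and 10 at 48 h (9.81%).

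**Figure D5:**
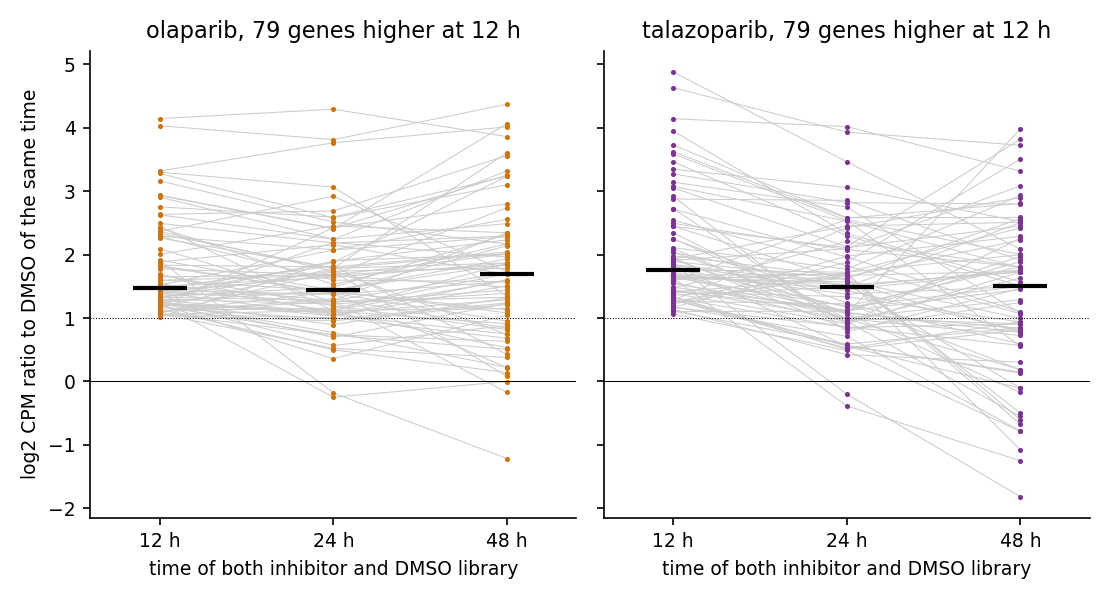
Log2 CPM ratio to DMSO of the same time at 12, 24 and 48 h for the 79 genes that were higher with both inhibitors at 12 h and had at least 1 CPM in 2 of the 3 libraries, 1 line per gene; black bars are medians and the dotted line marks 1 log2. The medians lie between 1.44 and 1.76, and 56 of the 79 genes at 24 h and 46 at 48 h were past the limit with both inhibitors. The genes were chosen by their 12 h ratios, so the 12 h medians lie above 1 by the rule.

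All 12 named genes rose in this fit. *GDF15* had a log2 fold change of 4.04 (SE 0.26, Benjamini-Hochberg adjusted p of 0.00307 by edgeR), *CSPG4* of 3.90 (SE 0.31, 0.00418) and *CCR7* of 3.71 (SE 0.58, 0.0151). *NECTIN4* was at 3.085 (SE 0.34), *UNC13A* at 2.78 (SE 0.25), *AXL* at 2.27 (SE 0.26) and *SDC1* at 2.27 (SE 0.34), each with a Benjamini-Hochberg adjusted p of at most 0.0134 by edgeR. For *CCR7* the talazoparib ratio was 3.46 at 24 h and 2.08 at 48 h. Among the 79 genes 17 did not pass, including *KITLG* (0.56, SE 0.33), *CD6* (0.97, SE 0.49), *PRF1* (0.87, SE 0.26) and *ATF3* (0.59, SE 0.37). With talazoparib at 48 h, *KITLG* stood at −0.78 and *CD6* at −1.07 against DMSO.

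Of the 39 p53 targets, 28 rose and 0 fell at 24 and 48 h. For comparison with this and the other lists, 1665 of the 16191 genes measured at 12 h and tested here rose and 1032 fell. *CDKN1A* had a log2 fold change of 2.08 (SE 0.28, Benjamini-Hochberg adjusted p of 0.0119 by edgeR), *BTG2* of 2.15 (SE 0.18), *TP53INP1* of 2.02 (SE 0.26) and *MDM2* of 1.34 (SE 0.16). *BBC3* was at 0.53 (SE 0.14), and *PIDD1*, at 0.02 (SE 0.17), did not pass. Of the 46 mitotic genes 23 fell and 0 rose, with *PSRC1* at −1.76 (SE 0.25) and *CCNB1* at −1.74 (SE 0.46). Of the 29 maturation genes 22 rose and 2 fell, with *CD14* at 3.35 (SE 0.59) and *NCF1* at 2.34 (SE 0.35). Of the 38 interferon-stimulated genes 22 rose, and of the 21 chemokines and cytokines 17 did. Of the 42 DNA replication genes 20 fell and of the 34 checkpoint and recombination genes 8. *PHGDH* was at −3.60 (SE 0.83), and *EVI1* at −1.25 (SE 0.38, Benjamini-Hochberg adjusted p of 0.058 by edgeR) did not pass.

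Whether the effect at 12 h differed from that at 24 and 48 h was tested with an interaction term over all 9 libraries of the course. Of 17808 genes 0 passed in edgeR's quasi-likelihood test, while 1685 had an unadjusted p under 0.05 and DESeq2 called 65. A list that was near 0 at 12 h and moved later, such as the maturation genes, is therefore not shown to differ between the times gene by gene.

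The knockdown of *EVI1* asked whether the 12 h genes also move when *EVI1* is lowered directly. With shEVI1-2532 against NTC over both days, 3942 of 18606 genes rose (21.2%) and 3706 fell (19.9%) in edgeR's quasi-likelihood test, and with shEVI1-2531 1765 rose (9.49%) and 1470 fell (7.9%). Of the 264 genes 234 were tested. With shEVI1-2532, 73 of them rose and 31 fell, and with shEVI1-2531 57 rose and 12 fell. Of the 79 more abundant genes 39 rose with shEVI1-2532 and 40 with shEVI1-2531, and 7 and 3 fell. The shares over all genes tested also cover less abundant genes, and none was taken over genes as abundant as the 79. Of the 25 lower genes 24 were tested, of which 7 fell with shEVI1-2532 and 4 with shEVI1-2531. *GDF15* rose by 2.15 on the log2 scale with shEVI1-2532 and by 2.76 with shEVI1-2531 (Benjamini-Hochberg adjusted p of 0.00118 and 0.000681 by edgeR), and *MUC5AC* rose by 2.10 and 2.22. In contrast, *CCR7* fell by 1.93 and *AXL* by 1.77 with shEVI1-2532 and did not pass with shEVI1-2531 (0.89 and 0.60). *SDC1* fell with shEVI1-2532 (−2.02) and rose with shEVI1-2531 (1.65). *CD6* fell with both, by 3.16 and by 1.66.

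Of the 16264 genes measured at 12 h and tested here, 3621 rose and 3536 fell with shEVI1-2532, and 1698 and 1404 with shEVI1-2531. Among the lists, 25 of 39 p53 targets rose with shEVI1-2532 and 24 with shEVI1-2531, and 1 and 0 fell. All 46 mitotic genes fell with shEVI1-2532 and 26 with shEVI1-2531. Maturation genes rose in 26 and 16 of 29 cases. Of the 38 interferon-stimulated genes 27 fell with shEVI1-2532 and 17 with shEVI1-2531, whereas 3 and 1 rose.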

How the data were processed

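RNA-Seq libraries were prepared from MUTZ-3 cells with a stranded mRNA kit. The authors deposited raw counts per gene and TPM for each of the 16 libraries, and the submitters' processing notes name STAR, Picard, featureCounts and hg38/GRCh38, without versions. Whether counting used strand is not given in the sources used here, so overlapping and antisense genes are uncertain. The deposited TPM were used only to check the counts. The members and gene lists were chosen with earlier results of these data known.

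Counts were scaled to the library total (CPM). Genes with at least 10 counts in 2 of the 3 libraries at 12 h were kept, with a limit of 1 log2. Clopper-Pearson intervals cover counting error only, and the floor of 3 counts stands in for a count of 0 in the ratios. Genes at 24 and 48 h, for the knockdown (day as a block) and for the interaction were tested with edgeR 4.0.16 (TMM, quasi-likelihood, Benjamini-Hochberg, 0.05) in R 4.3.3, with DESeq2 1.42.0 as an alternative, and the fits were tested on simulated data. Since samples are single libraries of 1 line, p-values measure only the spread between these samples. Named were the 12 genes per direction with the largest smaller ratio (at least 1 CPM in 2 of 3 libraries, past both denominators), the genes the study follows, members of the lists that passed and up to 4 others of each list by abundance, and 3 genes on either side of the limit. Further genes are said to be chosen after their values were seen or are given as examples from the lists. A few genes of the lists count in their totals but are not reported here by name.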

Additional observations from a re-analysis of the deposited data

How the results depend on the processing

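The counts of genes past 1 log2 with both inhibitors at 12 h depended on the denominator and the filter. Higher and lower genes numbered 264 and 25. They numbered 467 and 93 against DMSO at 24 h, 147 and 7 with both denominators required, 588 and 308 with no filter beyond 1 count in any library, 93 and 5 with 50 counts in 2 of 3 libraries, and 119 and 2 at a limit of 1.5 log2. With a mean of at least 1 CPM they were 71 and 5, and with 1 CPM in 2 of 3 libraries 79 and 2, both chosen after the values were seen. TMM, DESeq2 size factors and a prior count of 2 kept both counts within 1.5 times (215 to 272 and 17 to 22).

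At 24 and 48 h, 1809 genes rose and 1043 fell in edgeR's test. With DESeq2 2016 fell, and with no filter 2764 rose and 2322 fell. Without the olaparib libraries 1106 and 540 did, without the 48 h libraries 1098 and 487, and without the 24 h libraries 1626 fell. Of the 264 genes 114 rose in the main setting and 70 without the olaparib libraries, and 62 were among those with 1 CPM in 2 of 3. The 4 lower genes that fell became 2 with upper quartile scaling, without the 24 h or without the 48 h libraries, 7 with no filter and 0 among those with 1 CPM. The interaction called 0 genes in edgeR's test (1685 at an unadjusted p under 0.05), 65 with DESeq2, 1066 with no filter and 32 without the talazoparib libraries. With shEVI1-2532, 73 higher genes rose and 7 lower genes fell. These were 47 and 4 among genes past both denominators, and the lower genes numbered 4 with DESeq2 and 4 with shEVI1-2531. The causes were not tested.

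Of the 86 single-gene ratios recomputed, 86 stayed within their counting interval under TMM and 36 against DMSO at 24 h, and none past the limit changed sign. Of 36 list medians 35 and 22 stayed within their interval. No paired analysis was possible because each condition has 1 library and the labels give no replicate numbers shared between conditions. Time points or days entered the fits as blocks. At 12 h the precision is limited by 1 library per condition, and genes under 10 counts with DMSO have wide counting intervals.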
